A study of Mus musculus with 2 samples.

Results

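Genes of the leukocyte actin cytoskeleton were followed in the pancreatic lymph nodes of NOD (non-obese diabetic) mice, which become diabetic through autoimmunity. They are 10 of the 27845 gene names on the array, taken by name with every gene probe that carries that name: 16 of the 41174 gene probes on the array. Lcp1, Coro1a, Rac2, Arhgdib and Was are used mainly by blood cells and are called haematopoietic members here (9 probes). Tmsb4x, Cfl1, Pfn1, Actb and Arpc1b are used by most cells and are called general members (7 probes). RNA was hybridised to 2 arrays with 2 dyes each. On each array Cy5 marked RNA of 1 hyperglycemic female NOD mouse, 16 weeks old, with blood glucose above 500 mg/dl. Cy3 marked, on both arrays, a single pool made from 2 euglycemic NOD females of that age, below 200 mg/dl. The replicates are therefore 2 mice, and the pool is 1 control sample whose spread between mice was not measured. Dyes were not swapped, so a dye effect on a single probe cannot be told apart from the difference between the mice and the pool. Whole nodes were homogenised, so fewer cells of a type and less RNA per cell cannot be told apart.

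Actin monomers assemble into filaments that push the membrane forward and hold the contact between a lymphocyte and its partner. Monomers are held in reserve by thymosins, loaded by profilin and released from old filaments by cofilin. New branches are made by the Arp2/3 complex, which is switched on by proteins of the Wiskott-Aldrich family downstream of small GTPases. Blood cells add their own parts to this machinery, and lymphocytes depend on them to crawl through a lymph node and to signal.

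Across these genes the signal was lower in the hyperglycemic mice than in the pool under the processing the authors deposited. Of the 16 probes, 12 stood well above background in Cy3 and in Cy5 on both arrays and could be tested, at least 1 for each of the 10 genes. All 12 had a mean log2 ratio of mouse over pool below 0, and 11 passed the test as lower (limma, adjusted p under 0.05). Over all 5071 probes tested, 934 (18.4%) were called lower and 1276 (25.2%) higher. Lcp1, the leukocyte actin bundler L-plastin, had the lowest ratio of the members at -2.08 ± 0.65 (SD, n = 2), followed by Pfn1, profilin, at -1.50 ± 0.16 (SD, n = 2). Arpc1b, a subunit of the Arp2/3 complex, was the 1 gene with no call, at -0.10 ± 0.01 (SD, n = 2). These calls depend on how the signals were processed. When the ratios were rebuilt from unprocessed spot signals with normexp background correction (offset 50) and loess, 8 of the 12 ratios were below 0, none was called in either direction by limma, and 9 had an unadjusted p under 0.05 (6 lower and 3 higher). In that version 4 probes had a mean ratio above 0: Tmsb4x, Arpc1b, Arhgdib and 1 of the 2 for Coro1a.

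The 250 bases before the start of 4 members are shown so that the haematopoietic and general ends of the group can be set side by side: Lcp1 and Was as haematopoietic members, Pfn1 as the lowest general member and Arpc1b as the member with no call. They come from RefSeq on build GRCm38.p6, upstream of the most upstream start listed, 5′ to 3′ on the strand of the gene. Capitals mark GGAAG, the core letters bound by ETS factors such as PU.1, and GGGCGG, the GC box, both on either strand; in Arpc1b the leftmost run in capitals is a GGAAG match and a GC box that overlap.
Lcp1, chr14:75130873-75131122, plus strand: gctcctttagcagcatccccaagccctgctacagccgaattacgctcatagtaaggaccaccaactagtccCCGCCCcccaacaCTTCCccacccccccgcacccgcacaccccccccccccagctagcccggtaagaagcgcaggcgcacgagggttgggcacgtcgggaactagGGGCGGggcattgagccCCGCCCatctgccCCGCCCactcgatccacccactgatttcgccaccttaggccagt
Was, chrX:8090492-8090741, minus strand: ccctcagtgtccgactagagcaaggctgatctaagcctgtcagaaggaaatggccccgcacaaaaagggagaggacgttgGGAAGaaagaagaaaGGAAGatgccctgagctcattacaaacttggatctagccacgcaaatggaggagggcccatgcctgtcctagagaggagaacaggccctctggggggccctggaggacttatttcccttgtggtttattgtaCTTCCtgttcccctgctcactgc
Pfn1, chr11:70654651-70654900, minus strand: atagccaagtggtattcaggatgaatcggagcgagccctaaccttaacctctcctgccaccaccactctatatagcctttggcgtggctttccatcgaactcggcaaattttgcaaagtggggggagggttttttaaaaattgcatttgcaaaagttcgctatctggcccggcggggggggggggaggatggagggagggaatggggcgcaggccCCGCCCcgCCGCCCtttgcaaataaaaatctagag
Arpc1b, chr5:145114006-145114255, plus strand: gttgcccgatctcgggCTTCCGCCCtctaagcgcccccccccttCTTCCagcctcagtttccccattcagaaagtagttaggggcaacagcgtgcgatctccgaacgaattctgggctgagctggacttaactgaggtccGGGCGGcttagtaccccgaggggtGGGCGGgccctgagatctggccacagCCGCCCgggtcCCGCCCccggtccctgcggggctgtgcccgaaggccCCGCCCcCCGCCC
Of the 10 members 8 were in the RefSeq table; Rac2 and Actb are named only. GGAAG was found in 5 of the 8 and the GC box in 5 of the 8, against 64.1% and 32.7% of all 32851 upstream windows of 250 bases. These are descriptions of letters and not of binding. The marked motifs were picked after 7 had been searched in the members. Of the others, the SRF CArG box was in 0 of the 8 (1.47% of all windows), TATAAA in 1 (12.4%), GAGGAAG in 0 (10.6%), CCGGAAG in 1 (6.91%) and CCAAT in 1 (33.8%); GAGGAAG and CCGGAAG contain GGAAG.

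Signals below are processed intensities, which the scanning software had background-subtracted and dye-normalised, and ratios are log2 of mouse over pool. The files place probes on build mm8 and do not say whether a probe lies in an exon or a UTR. For Lcp1, which bundles actin filaments in leukocytes, the probe at chr14:73964558-73964617 read 4598 in the pool against 1496 in mouse 1, and 6371 against 1099 in mouse 2. Both mice were below the pool, mouse 2 further than mouse 1, with log2 ratios of -1.62 and -2.53. The mean put the mice at 23.7% of the pool (adjusted p = 0.00102). These Cy5 readings were dim before processing: the mean spot signal was 68.1 and 57.0 over local backgrounds of 36 and 35.5. The second Lcp1 probe (chr14:73958235-73958294) was not well above background in Cy5 on either array, nor in Cy3 on array 1, so it was not tested and gives no fold.

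Coro1a encodes coronin 1A, which binds actin filaments and is needed for the survival and migration of T cells. Its probe at chr7:126491972-126492031 read 5030 in the pool against 1928 in mouse 1, and 7200 against 3183 in mouse 2, a mean ratio of -1.28 ± 0.15 (SD, n = 2, adjusted p = 0.0014). The other Coro1a probe (chr7:126491059-126491118) read 14059 and 21615 in the pool against 8684 and 11119 in the mice. Its mean ratio was -0.83 ± 0.19 (SD, n = 2, adjusted p = 0.00636). The mice were below the pool on both probes, but with normexp and loess the first had a mean of -0.65 and the second of 0.08.

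Rac2 is the small GTPase of blood cells that drives actin assembly and the oxidative burst. The Rac2 probe at chr15:78388277-78388336 read 5960 and 9259 in the pool against 3033 and 3785 in the mice. That is a mean ratio of -1.13 ± 0.22 (SD, n = 2, adjusted p = 0.00229). Its neighbour on the same transcript, chr15:78388370-78388429, read 6314 against 5095 in mouse 1 and 9800 against 4925 in mouse 2. The mice differed on this second probe, with log2 ratios of -0.31 and -0.99, a mean of -0.65 and an adjusted p of 0.0332. With normexp and loess the Rac2 means were -0.80 and -0.26, and the second probe was at 0.14 in mouse 1 and -0.66 in mouse 2.

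Was encodes the Wiskott-Aldrich syndrome protein, the blood-cell activator of Arp2/3. Its probe at chrX:7238612-7238671 read 1107 and 1732 in the pool against 669.7 and 1016 in the mice. The log2 ratios of -0.73 and -0.77 nearly coincide (mean -0.75 ± 0.03, SD, n = 2, adjusted p = 0.00782). The unprocessed Cy5 signal of this probe was dim, at 49.9 and 53.9 over local backgrounds of 34.5 and 33.5. With normexp and loess its mean ratio was -0.25. The second Was probe (chrX:7238675-7238734) was well above background in Cy3 on both arrays and in Cy5 on neither. Its signal was put at 1.82-fold or more higher in the pool, a bound that carries no test. On each array the bound took the lowest Cy5 signal that counted as well above background, or the probe's own Cy5 signal where that was higher. For this probe its own signal was the higher in part of the data. A signal not well above background can thus exceed that lowest signal, so the bound is approximate. The bound holds for the processed signals alone; with normexp and loess the mean ratio of this probe was -0.14, a smaller difference than the bound. Arhgdib encodes an inhibitor, mainly of blood cells, that holds small GTPases inactive in the cytosol. Its probe (chr6:136887916-136887975) read 14300 against 8676 in mouse 1 and 26327 against 21244 in mouse 2. Both mice were below the pool, with log2 ratios of -0.72 and -0.31, a mean of -0.52 and an adjusted p of 0.0438. With normexp and loess the Arhgdib mean was 0.90, on the other side of 0.

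**Figure D1:**
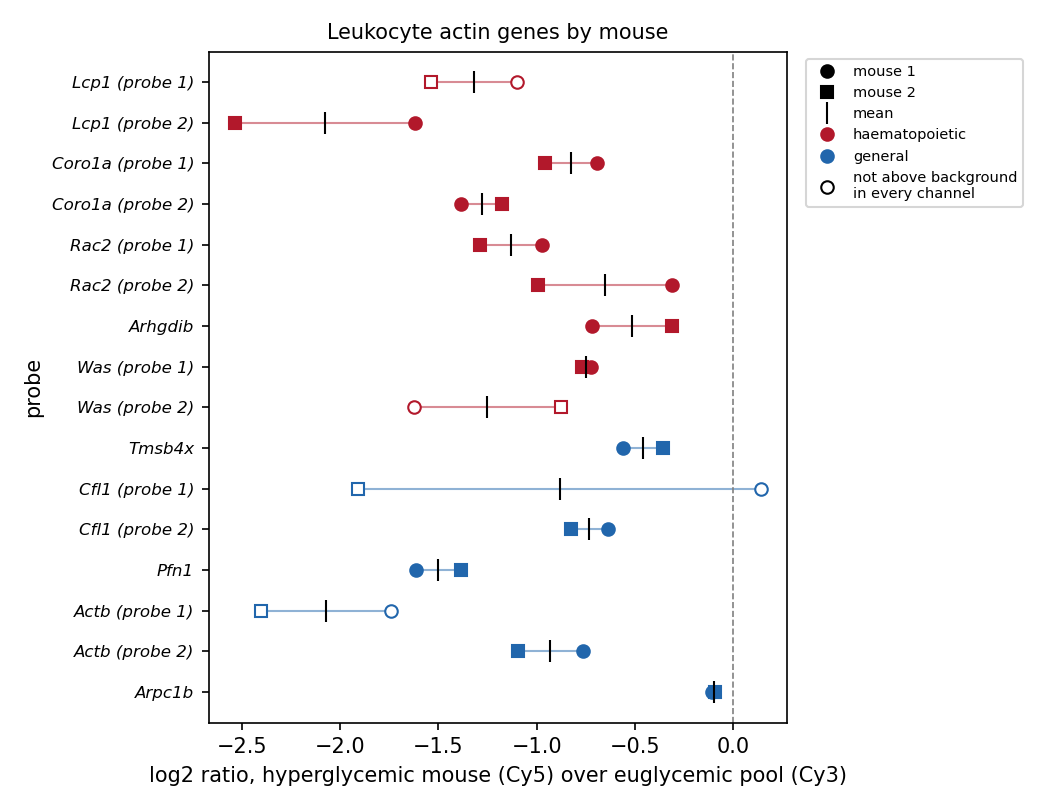
The log2 ratio of mouse over pool (horizontal axis) for all 16 probes of the 10 genes (vertical axis), with a circle for mouse 1, a square for mouse 2, a black bar at their mean, red for haematopoietic and blue for general members. Filled symbols are the 12 tested probes, whose means run from -2.08 for Lcp1 to -0.10 for Arpc1b, and open symbols are the 4 that were not well above background in every channel.

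Among the general members, Pfn1 encodes profilin, which loads actin monomers for filament growth. The Pfn1 probe, which spans 625 bases of the genome at chr11:70468381-70469005, read 1380 against 450.6 in mouse 1 and 2023 against 774.9 in mouse 2. The mice were at 35.4% of the pool on average, with an adjusted p of 0.000926, the smallest among the members. Its unprocessed Cy5 signal was 47.8 and 51.8 over local backgrounds of 38.5 and 37, and with normexp and loess its mean was -0.49.

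Actb, the cytoplasmic beta-actin gene often used as a loading control, has 2 probes under its name. The tested one reads the pool at 2734 and 3936 against 1610 and 1840 in the mice, a mean ratio of -0.93 ± 0.24 (SD, n = 2, adjusted p = 0.00458). Its unprocessed Cy5 signal was dim, at 69.0 and 67.4 over a local background of 35 on both arrays. With normexp and loess its mean was -0.57. The files place this probe on chromosome X (chrX:147774990-147775049) and not at the Actb locus on chromosome 5, so its reading may include near-identical actin sequence and is uncertain as a measure of Actb alone. The probe at the locus (chr5:143168706-143168765) is printed 10 times on each array, and its Cy5 signal was well above background in none of these spots. Its ratio was below 0 in every spot used: from -2.48 to -0.88 over 10 spots on array 1, and from -2.81 to -1.57 over 8 on array 2. Its signal was put at 1.53-fold or more higher in the pool by the same kind of approximate bound on processed signals. The mean ratio of this probe with normexp and loess was -0.14, again a smaller difference.

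Cfl1 encodes cofilin, which severs old filaments. The tested Cfl1 probe (chr19:5493882-5493941) read 2676 against 1721 in mouse 1 and 4676 against 2636 in mouse 2, a mean ratio of -0.73 ± 0.13 (SD, n = 2, adjusted p = 0.00918). Both mice were below the pool on it. The unprocessed Cy5 signal of this probe was dim, at 70.0 and 82.2 over local backgrounds of 32 and 36.5. With normexp and loess its mean was -0.46. The other Cfl1 probe (chr19:5493385-5493444) was not well above background in Cy5 on either array, nor in Cy3 on array 1; its ratios of 0.14 and -1.91 were not tested. Tmsb4x encodes thymosin beta 4, the main store of actin monomers. Its probe (chrX:162551541-162551600) read 78975 against 53608 in mouse 1 and 117051 against 91521 in mouse 2, a mean ratio of -0.46 ± 0.14 (SD, n = 2). Its adjusted p of 0.0495 lies at the threshold: when each gene was given 1 probe the call was lost, and with normexp and loess the mean was 2.88. For Arpc1b (chr5:145381449-145381508) the pool read 20704 and 32545 and the mice 19192 and 30550, so the mice lay just under the pool. Its adjusted p was 0.623, and with normexp and loess its mean was 1.62.

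The 4 probes that turned above 0 with normexp and loess were the 4 member probes among the 507 brightest of those tested. Over these 507 probes the median log2 ratio over all genes was -0.0005 in the processed signals and 1.37 with normexp and loess, so bright probes as a whole sat far above 0 in the second version. When a further loess on intensity was added to it, chosen after seeing these data, the median of the 507 brightest probes was -0.06 and all 12 member ratios were below 0, 8 of them called lower (against 7.75% of all probes called lower and 9.37% higher). Of all probes 0.0% were called lower and 1.83% higher before that step. Which version is nearer to the RNA in the tissue was not tested; there is no dye swap.

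The other versions gave member counts that are read against their own shares of all probes. With the authors' deposited log2 ratios, 11 of 12 were called lower (18.4% of all probes lower, 25.1% higher). These are the processed ratios themselves (r = 1.0), so they are no separate check. The count was also 11 of 12 with median centring (22.0% and 23.9%), with a further loess on the processed ratios (21.5% and 22.7%) and with a prior variance that follows intensity (19.9% and 25.9%). With 1 probe per gene 8 of 10 members were called lower (17.8% and 25.1%). Loess without background correction called 8 of 12 lower and 2, Tmsb4x and Arpc1b, higher (12.9% and 19.7%). Normexp (offset 50) and loess with a filter on 1 channel called 2 of 14 lower and 3 higher (0.488% and 4.77%). Processed signals with a looser filter or none, and normexp at offset 10, gave 0 calls by limma among the members and among all probes (0.0%). Among member probes an unadjusted p under 0.05 (limma) was then reached by 10 of 14, 11 of 16 and 8 of 12. Of all probes it was reached by 2139 lower and 1257 higher of 8813, by 3249 and 1783 of 41162, and by 476 and 655 of 5071.

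**Figure D2:**
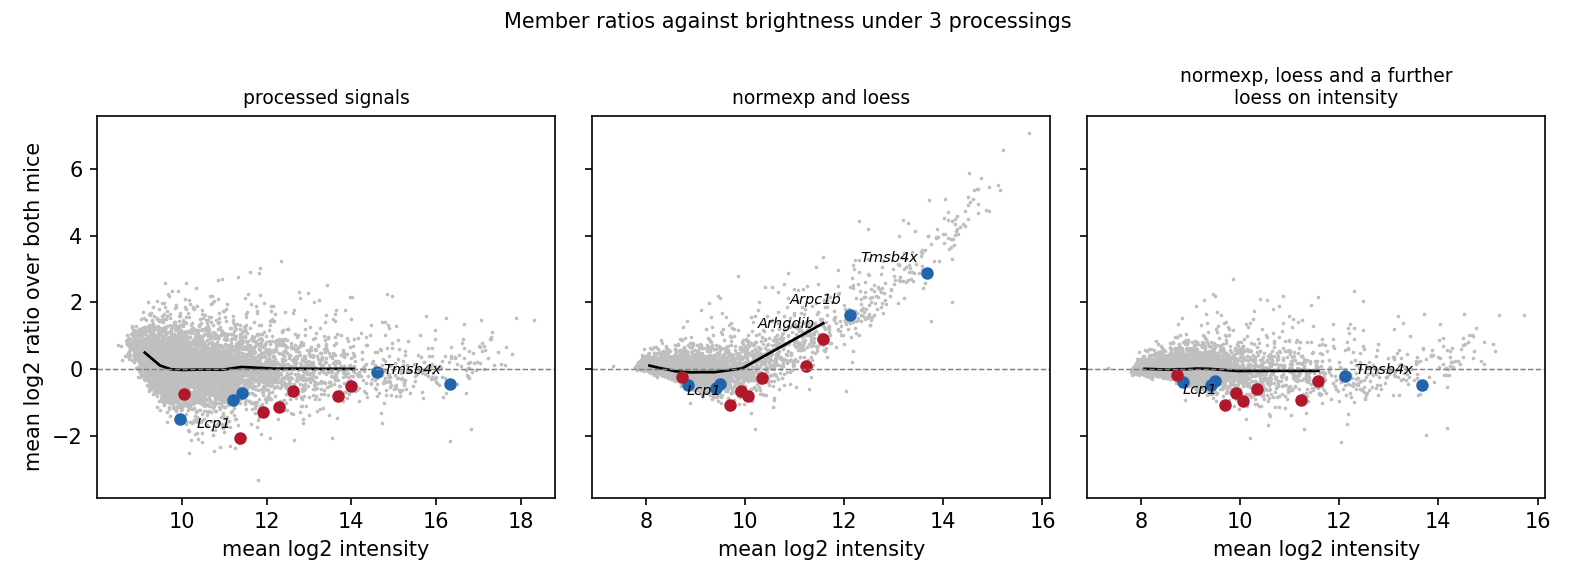
The mean log2 ratio of mouse over pool (vertical axis) against mean log2 intensity (horizontal axis) for all 5071 tested probes in grey and the 12 member probes in red (haematopoietic) and blue (general), in panels for the processed signals, for normexp and loess, and for the latter with a further loess; the black line joins medians of 10 equal intensity bins. Bright probes rise above 0 in the middle panel, where the median of the 507 brightest probes is 1.37, and the 4 member probes among them rise too.

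Haematopoietic and general members were then compared. Among the haematopoietic members all 7 tested probes were called lower, with a median log2 ratio of -0.83. Among the general members 4 of 5 were called lower, with a median of -0.73. Of all 5071 tested probes 18.4% were called lower and 25.2% higher, and their median was 0.06. The 2 medians differed by 0.09 on array 1 and 0.17 on array 2, the haematopoietic one lower on both. The ranges overlapped widely, from -2.08 to -0.52 for haematopoietic and from -1.50 to -0.10 for general members. The difference was not tested: probes are not replicates, and over 2 arrays an exact sign-flip permutation test cannot go below p = 0.5. The sign of the difference was also unstable. It was 0.04 the other way when Arpc1b, which blood cells use as their main form of that subunit, was counted as haematopoietic, and 0.20 the other way with normexp and loess. No difference between the classes is claimed.

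A further list, called leukocyte actin regulators here, held 32 other genes used mainly by blood cells. Most were actin regulators, but Itgal, Itgb2, Ptprc and Selplg encode leukocyte surface proteins. Of the 32 genes 31 were on the array and 23 were tested, with 28 probes. Of these probes 19 (67.9%) were called lower and 0 higher by limma, against 18.4% and 25.2% of all 5071 tested probes. At an unadjusted p under 0.05 (limma) 21 were lower and 0 higher, against 1156 and 1517 of all tested probes. The median of the 28 probes was -0.70. Evl, an Ena/VASP protein at filament ends, fell by 1.74 on the log2 scale, but unevenly, with -2.39 in mouse 1 and -1.08 in mouse 2. The GTPase-activating proteins Arhgap4 and Arhgap30 had means of -1.68 and -1.59 (the second Arhgap30 probe was at -0.95), Dock10, an exchange factor for such GTPases, -1.66, and Myo1g, a membrane-bound myosin of lymphocytes, -1.51. The chains of the integrin LFA-1, by which lymphocytes adhere, were lower to a like extent, Itgb2 at -1.17 and Itgal at -1.15. Ptprc, the CD45 phosphatase found on all leukocytes, was at -1.12. Arhgap15, Capg, Fyb, Hcls1, Rhoh and Selplg were tested and not called, nor was 1 of 2 probes each for Gmfg and Wipf1. The probes named above from Evl to Ptprc had ratios below 0 on both arrays, and their means with normexp and loess ran from -0.87 to -0.35, with no call there. Of the 19 probes called lower, both of Cotl1, a coactosin-like actin-binding protein, turned: they were at -0.79 and -0.63, and at 0.24 and 0.07 with normexp and loess.

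Of 57 general actin genes 36 were tested, with 45 probes. Of these 16 (35.6%) were called lower and 2 higher, against 18.4% and 25.2% of all tested probes. The median of the 45 probes was -0.37. That median was -0.19 in mouse 1 alone and -0.45 in mouse 2 alone. The lower calls included both probes of Actg1, the other cytoplasmic actin, at -1.51 and -1.46, and both of Tmsb10, a sister of thymosin beta 4, at -1.31 and -0.98. Wdr1, the partner of cofilin, was at -1.20, Coro7, a coronin of the Golgi, at -1.05, the filament crosslinker Flna at -0.89 and the myosin heavy chain Myh9 at -0.88. With normexp and loess none of these was called lower. Of the 16 probes called lower, 3 turned above 0 there: Myh9 at 0.10, the tropomyosin Tpm3 from -0.58 to 0.77, and the myosin light chain Myl6 from -0.47 to 1.66. The 2 higher calls were Gsn, gelsolin, which cuts and caps filaments, at 0.75 and Twf1, twinfilin, at 0.70. Both were higher in each mouse, and neither was called with normexp and loess.

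The close relatives of the members are all among the general actin genes above, so their calls were already counted there. They had 8 tested probes with a median of -0.76. Of these 4 were called lower and 0 higher, against 18.4% and 25.2% of all tested probes. The 4 were both probes of Actg1 and both of Tmsb10, relatives of general members. At an unadjusted p under 0.05 (limma) 6 of the 8 were lower and 1 higher, against 1156 and 1517 of all 5071 probes. Rac1, the widely used relative of Rac2, had ratios of -0.40 and -0.06 on its 2 probes (adjusted p = 0.0754 and 0.767). Arhgdia, the widely used relative of Arhgdib, differed between the mice, at -0.10 and -0.98 (adjusted p = 0.0866). Pls3, the plastin of other tissues, was at 1.17 in mouse 1 and 0.18 in mouse 2 (adjusted p = 0.0541). These 3 relatives of haematopoietic members were thus not called, though the difference from Rac2, Arhgdib and Lcp1 was not tested. Cfl2, Pfn2, Coro1b, Coro1c, Pls1, Arpc1a and Wasl had no probe that could be tested.

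**Figure D3:**
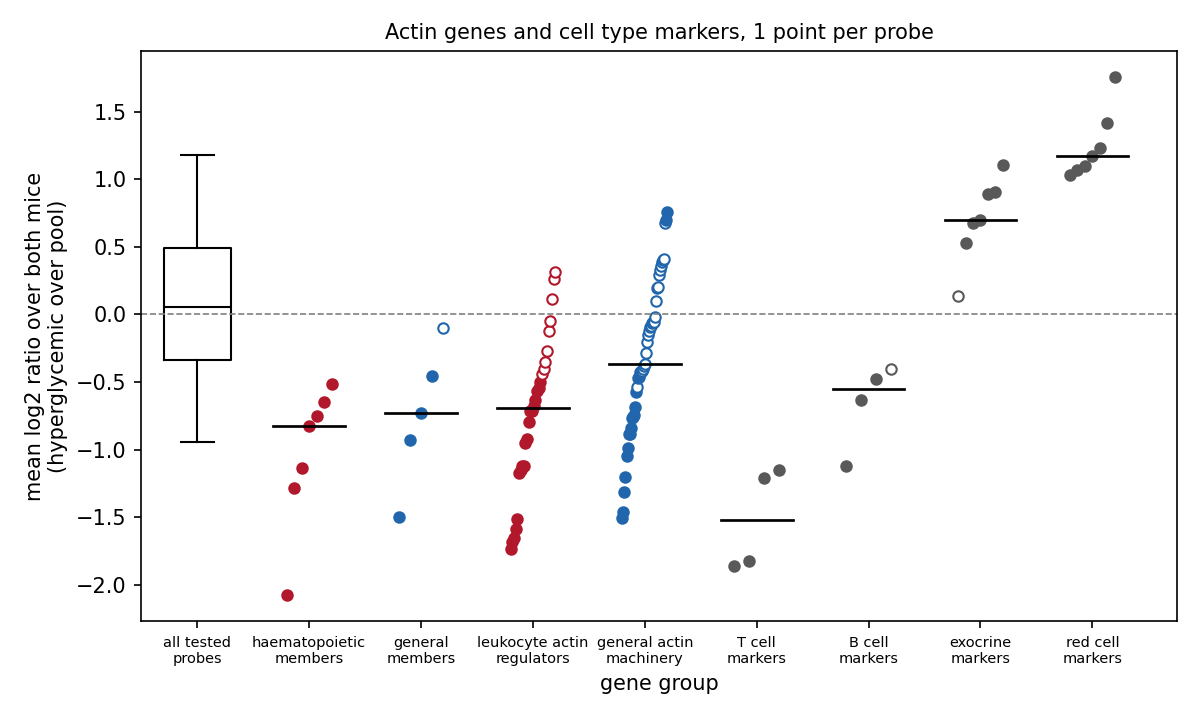
The mean log2 ratio of mouse over pool (vertical axis) for each tested probe of the members, the actin lists and 4 of the marker lists (horizontal axis), filled where called and open where not, with a black bar at each median; the box for all tested probes shows quartiles and whiskers from percentile 5 to 95. Medians run from -1.52 for T cell markers to 1.17 for red cell markers, with the haematopoietic members at -0.83 and the general members at -0.73.

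Markers of lymph node cells and of other tissues, such as exocrine pancreas and adipocytes, were read from the same fit. Their calls are read against 18.4% of all tested probes called lower and 25.2% higher. Of the T cell markers 4 of 4 tested probes were called lower (median -1.52), and their summed signal was 12015 and 18711 in the pool against 4391 and 8024 in the mice. Of the B cell markers 3 of 4 were called lower (median -0.55), with sums of 18061 and 28513 against 12280 and 19350. The lymphocyte markers that could be tested thus had ratios below 0 in both mice, though Cd79b was not called (limma, adjusted p = 0.0685). Signal in both channels was a condition for testing, and Cd3e, Cd79a and Cd22 did not meet it. Macrophage markers had 1 of 5 probes called lower and a median of 0.24, with sums of 67933 and 87611 against 66597 and 116421. The neutrophil marker S100a9 was higher at 1.46, with 1125 and 1821 in the pool against 3897 and 3998; S100a8, Mpo and Elane could not be tested. Exocrine pancreas markers had 6 of 7 probes called higher (median 0.70), with sums of 678766 and 929675 in the pool against 999297 and 1689822, so pancreatic RNA was plentiful in both channels. The amylase genes Amy1 and Amy2a5 were not on this list and went the other way. Amy1 was called lower at -1.61 and -1.82 and Amy2a5 at -2.15 (limma, adjusted p under 0.05), so exocrine genes did not all move together. Red cell markers had 7 of 7 called higher (median 1.17), with sums of 104170 and 178391 against 236687 and 421916. Stromal markers had 2 of 4 probes called lower, both of Ccl19 (whose means with normexp and loess were 1.01 and 0.74), and 1 higher, Cxcl13, with sums of 80256 and 132078 against 54394 and 79661. Of the smooth muscle genes Acta2 was lower at -1.51 and Tagln higher at 1.88, with sums of 6177 and 10281 against 11061 and 11748. Of the adipocyte markers 1 of 4 probes, that of Cfd, was lower, with sums of 33066 and 50022 against 30670 and 42369. With normexp and loess several of these values were far from those above. The listed exocrine probes had means from 4.45 to 5.71, while Amy1 was at 0.22 and 2.01 and Amy2a5 at 1.44. Globin probes had means from 2.25 to 4.38 there, 1 of 2 Lyz2 probes went from 0.24 to 3.50 and Cd79b from -0.40 to 0.30. The T cell probes were at -0.73 to -0.50 there. The part of these cell types in the members' values was not tested.

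Each array held 45018 spots. The Cy5 channel was far dimmer than Cy3: the median spot signal was 37.7 and 38.2 over a background of 35 in Cy5, and 234 and 81.2 over 31 and 31.5 in Cy3. The share of gene spots well above background was 14.5% and 16.4% in Cy5 against 21.7% and 63.0% in Cy3, and 0 spots were saturated. The small number of arrays limits the precision of every value.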

How the data were processed

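Pancreatic lymph node RNA (1 ug labelled, per the labels) was read on 2 arrays. Per the file headers, Agilent Feature Extraction 10.7.3.1 gave spot and background intensity without normalization, and deposited processed intensity that was background-subtracted, given a surrogate value where it did not exceed background, and dye-normalized (linear factor and LOWESS). The deposited log10 ratio column is, per the file headers, taken from the processed signals, Cy5 over Cy3. The authors' deposited table holds log2 ratios whose column medians are 0.079 and 0.0283. They match the log2 ratios of the processed signals, Cy5 over Cy3, with r = 1.0 over 5072 gene probes. How its probes were chosen is not given in the sources used here. Deposited 0 or 1 flags marked spots well above background and outliers; 338 and 184 outlier spots were left out.

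Here, spots of a probe were averaged, and the log2 ratio of processed signals was tested against 0 with limma 3.58.1 in R 4.3.3 (1 residual degree of freedom, moderated, two-sided), with Benjamini-Hochberg adjustment over the 5071 probes that stood well above background in Cy3 and in Cy5 on both arrays. Every adjusted p is from limma. The fit was tested on simulated data with independent noise on each array. That check does not cover an error that both arrays share through the single pool, and no p-value here measures it. Loess used a span of 0.3. A probe dim in Cy5 but not in Cy3 was given a bound from the processed signals (dye-normalized by the software's LOWESS alone) after Aquantile scaling. It used, on each array, the lowest Cy5 signal well above background or the probe's own Cy5 signal, whichever was higher. Without dye swaps that bound is open to dye bias. Genes were named by accession (23483 probes), symbol (6678) or synonym (2887) in a RefSeq table; 8126 probes were unmatched.

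Members, lists, settings and the choice of processed signals over normexp with loess were made with earlier results of these data known, including that bright genes differ between the 2 versions. Normexp with loess is the usual start for such arrays and was the first choice of an earlier analysis. Named genes are all members, the up to 8 probes called lower and up to 8 called higher with the largest ratios in each actin list, and the members' close relatives; the other list genes named were chosen after their values were seen. Alternatives covered the starting values, background correction, centring, filters, variance model, probes per gene and each mouse left out.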

Additional observations from a re-analysis of the deposited data

How the results depend on the processing

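The calls held in some versions of the processing and not in others. With median centring, a further loess on the processed ratios and an intensity-dependent prior variance, 11 of the 12 tested member probes were called lower, as reported. Of all probes 22.0%, 21.5% and 19.9% were called lower in these versions, and 23.9%, 22.7% and 25.9% higher. The deposited value table also gave 11 (18.4% of all probes lower, 25.1% higher), but it holds the same ratios and is no separate check. With 1 probe per gene 8 of 10 members were called lower, against 17.8% of all probes lower and 25.1% higher. With loess but no background correction 8 of 12 were called lower and 2 higher (Tmsb4x and Arpc1b, both general), against 12.9% and 19.7% of all probes. With normexp and loess at an offset of 50 or 10, and with processed signals filtered on 1 channel or not filtered, limma called 0 member probes lower, 0 of each class, 0 of both actin lists in either direction and 0 of all probes lower; 93 of all probes were called higher with offset 50 and 0 in the others. At an unadjusted p under 0.05 (limma), member probes lower and higher numbered 6 and 3 of 12, 6 and 2 of 12, 10 and 0 of 14, and 11 and 0 of 16. All probes numbered 421 and 738 of 5071, 476 and 655 of 5071, 2139 and 1257 of 8813, and 3249 and 1783 of 41162. With the looser filters the adjusted p of the member probes that lost their call ran from 0.0581 to 0.562. With normexp, loess and the 1-channel filter together, 2 member probes were lower (both haematopoietic, 0 general) and 3 higher (1 haematopoietic, 2 general), 2 leukocyte regulators and 1 general actin probe were lower, and 43 of all probes were lower and 420 higher. The cause was not tested.

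Directions turned at the bright probes. With normexp and loess at offset 50, under either filter, Tmsb4x was at 2.88, Arpc1b at 1.62, Arhgdib at 0.90 and 1 of the 2 Coro1a probes at 0.0797. At offset 10 the values were 1.67, 1.03 and 0.46 for Tmsb4x, Arpc1b and Arhgdib, and without background correction 1.47, 0.81 and 0.33. Medians of haematopoietic members, leukocyte regulators and general actin genes were -0.26, -0.33 and -0.0535 at offset 50, -0.45, -0.45 and -0.14 at offset 10, -0.45, -0.44 and -0.15 without background correction, and -0.26, -0.16 and -0.10 with offset 50 and the 1-channel filter. General members were at -0.46 at offset 50 and -0.30 with the 1-channel filter added. With no filter haematopoietic members were at -1.13, general members at -0.88 and leukocyte regulators at -0.63; with median centring the regulators were at -0.75. The haematopoietic minus general difference was -0.10 as reported. It was 0.20, 0.16 and 0.16 in the 3 loess versions, 0.0419 with the 1-channel filter added, 0.0438 with Arpc1b as haematopoietic, -0.25 with no filter and -0.0159 with 1 probe per gene. With normexp, loess and a further loess, added after seeing the data, it was -0.33, general members were at -0.39, regulators at -0.26 (10 lower) and general actin genes at -0.16 (1 higher), and 393 of all probes were lower and 475 higher. With the intensity trend 6 general actin probes were higher.

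With either mouse left out the difference ran from -0.165 to -0.0886 and the general actin median from -0.447 to -0.191; counts of calls have no value there, since 1 array leaves no residual degree of freedom. No paired analysis was possible because each mouse was read against 1 shared pool. The dim Cy5 channel limits which probes can be tested.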
